A study of Macaca mulatta with 18 samples.

Results

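The genes described here encode the machinery that brings proteins into mitochondria: the TOMM and TIMM families together with the sorting subunit SAMM50 and its metaxin partners, the oxidative folding pair CHCHD4 and GFER, the import motor and the processing peptidase. They were chosen by gene symbol, with a rule that uses no measured value, and comprised 35 genes with 46 probes among 20046 gene symbols on the array. Of these, 25 genes were bright enough to be tested, among 8589 tested genes in all.

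RNA came from vastus lateralis biopsies of 18 male rhesus monkeys (Macaca mulatta), 1 per animal, flash-frozen after collection from animals of ongoing studies that were housed individually and fed standard chow. Age was 6.00 ± 0.00 years in the 6 young, 16.48 ± 0.31 years in the 6 middle-aged and 26.83 ± 0.22 years in the 6 old animals (mean ± SEM). No treatment or genotype separates the groups, which differ by age alone as the labels give it. Each RNA was hybridised to an Illumina Sentrix Human HT-12 BeadChip, whose probes were designed for human transcripts, so a dim probe can reflect either a scarce monkey transcript or a poor match of its sequence to the human one.

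Nearly all mitochondrial proteins are encoded in the nucleus, made in the cytosol and imported. Precursors enter through the TOM complex of the outer membrane, where TOMM20, TOMM22 and TOMM70 act as receptors and TOMM40 forms the pore. From there, barrel proteins of the outer membrane go to the SAM complex, small proteins of the intermembrane space are trapped by disulfide formation on CHCHD4 (also called MIA40), carrier proteins are escorted by small TIM chaperones to the TIM22 translocase, and proteins with a presequence pass through the TIM23 translocase, are pulled into the matrix by the import motor and are trimmed by the processing peptidase. Skeletal muscle depends on this route for the upkeep of its respiratory chain.

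The chip measured all steps of this route, but unevenly. A probe was called detected on an array at a detection p under 0.05, and a gene entered the tests if it had a probe annotated to no other gene that was detected on 6 or more of the 18 arrays. Genes whose probes missed this limit were the receptor homologue TOMM20L and the pore homologue TOMM40L, the MIA enzyme GFER, the small TIM proteins TIMM8B and TIMM13, the TIM23 subunits TIMM17A and TIMM50, the motor subunits TIMM44 and DNAJC19, and the peptidase subunit PMPCA. TIMM17A was detected on 3 arrays and TOMM40L on 2, and the other 8 on none. Just inside the limit, the metaxin MTX1 was detected on 9 arrays and the nucleotide exchange factor GRPEL2 on 12. TOMM20L lies next to TIMM9 in the macaque annotation of RefSeq. TIMM9 was detected on all 18 arrays, while neither of the 2 TOMM20L probes was detected on any.

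**Figure D1:**
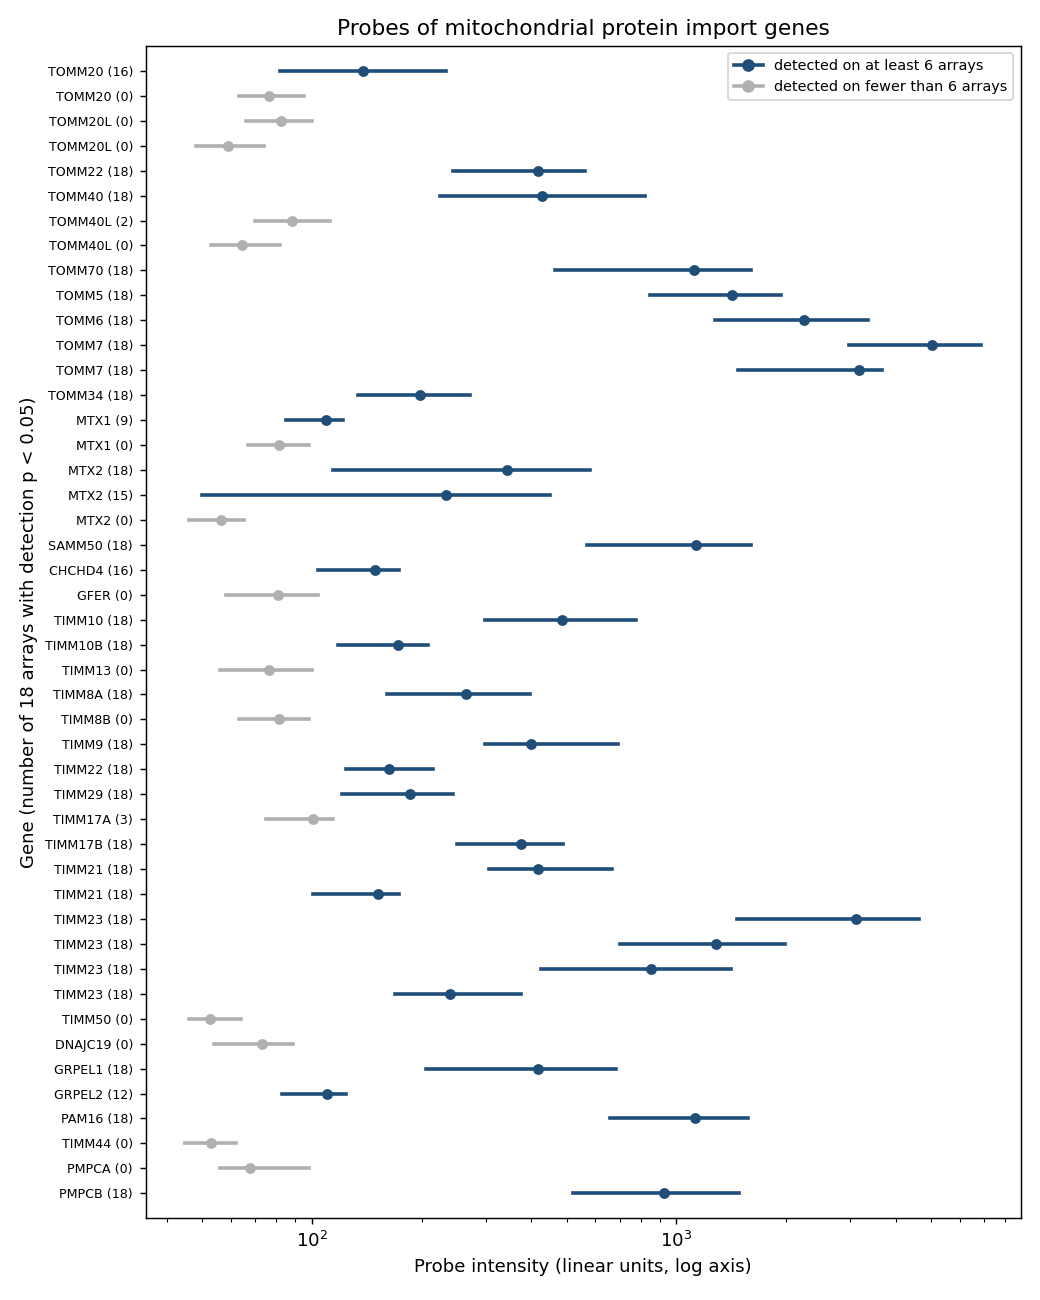
Intensity (linear units on a log axis) of the 46 probes of 35 import genes, with the range over 18 arrays as a line and the median as a point, ordered by role from the TOM complex at the top to the processing peptidase at the bottom. Blue probes were detected on at least 6 arrays and grey probes on fewer, and the number after each symbol counts the arrays on which the probe was detected.

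Arrays had median intensities of 71 to 94 for young, 76 to 90 for middle-aged and 73 to 97 for old animals. Of the 22 fibre markers sought, 20 were tested, so the biopsies carried the transcripts of skeletal muscle. Young replicate 6 stood apart, with a mean score of 1.43 for fibroblast and matrix genes and 0.99 for adipocyte genes, against ranges of -0.48 to 0.42 and -0.41 to 0.09 in the other 5 young animals; a score is the mean over a list of each gene's log2 level minus its mean over the 18 animals. The same animal had the highest young score for macrophage genes (1.11, against -0.69 to 0.49 in the other young animals) and for endothelial genes (0.93, against -0.42 to 0.06). Its skeletal muscle fibre score was the lowest of the young, at -0.84 against -0.66 to 0.53. Of 19 matrix markers 14 were tested, and FN1, THY1 and LOX were among those not detected on enough arrays. Of 11 adipocyte markers 6 were tested, of 11 macrophage markers 8 and of 12 endothelial markers 6. The main results against young animals are therefore given also without this animal, for the group of import genes and for some single genes. In bulk muscle, fewer cells of a type and less RNA per cell cannot be told apart.

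Levels are given as log2 levels, the Z score of an array's log intensities put back on a log2 scale, and differences as log2 fold changes of the older over the younger age. The 3 ages were compared in 1 limma fit over all tested genes, and a gene was called at a Benjamini-Hochberg adjusted p under 0.05. Nothing in the labels pairs animals across ages.

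Between old and young animals, most import transcripts had lower mean levels in the old, by small amounts. The log2 fold change was below 0 for 20 of 25 genes and above 0 for 5, where 48.4% of all tested genes were above 0. The median was -0.12 over the import genes and -0.007 over all genes. None of the 25 passed the adjusted threshold, which 0.0931% of all genes did, and the lowest adjusted p among them was 0.256 in limma. TIMM8A and CHCHD4, both genes of intermembrane space import, had an unadjusted p under 0.05 on the lower side, a threshold that 5.69% of all genes passed in that direction, and 0 on the higher side, where 5.27% of all genes did.

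The size of this difference depended on single animals. Without young replicate 6, the median of the import genes was -0.19 and 21 of 25 were below 0, where 48.9% of all genes were; 5 had an unadjusted p under 0.05 on the lower side, where 7.14% of all genes did, and TIMM8A alone was called (log2 fold change -0.67, limma adjusted p = 0.0492), where 0.629% of all genes were. The median was -0.07 without old replicate 3, -0.073 without young replicate 4 and -0.077 without young replicate 1. In the 15 animals left without young replicate 6 and old replicates 1 and 2, the median was -0.18. Of the 25 genes 22 were below 0, where 48.5% of all genes were. None was called, where 0.291% of all genes were, and the lowest limma adjusted p was 0.104. Earlier results of these data, not given here, had set old replicates 1 and 2 apart, so this choice of animals was not independent of the data. Erythrocyte markers were higher in old animals: 3 of the 5 tested were called, out of 9 sought, of which SLC4A1 and EPB42 were detected on no array. Under 20 of 29 alternative settings none of the 5 was called. Their score ran from -0.70 to 3.16 in old animals and from -1.28 to -0.63 in young animals, and its part in the differences of the import genes was not tested.

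Between old and middle-aged animals, the differences of the import genes lay on both sides of 0. Of the 25 genes, 11 were above 0 and 14 below, where 54.7% of all genes were above, and the median was -0.028 against 0.023 over all genes. None was called, where 0.652% of all genes were, and the lowest limma adjusted p was 0.098, for TOMM5. On the lower side TOMM5, TIMM21, TIMM10, CHCHD4 and TIMM8A had an unadjusted p under 0.05 (7.22% of all genes did), and on the higher side TOMM20 and TIMM29 (9.24% of all genes).

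How these 2 ages were scaled mattered for the group as a whole. The SD of log2 intensity, by which the Z score divides, was 1.025 to 1.193 on middle-aged and 1.163 to 1.265 on old arrays. Its lowest value was that of middle-aged replicate 6. When each array was centred on its median without division by its SD, the median over all genes moved to 0.13 and that over the import genes to 0.14. Of the import genes 18 were then above 0 and 7 below, where 26.3% of all genes were below. At an unadjusted p under 0.05 they held 3 genes on the higher side and 0 on the lower side, where 19.7% and 2.95% of all genes passed. None was called, where 1.9% of all genes were. Quantile normalization and another background correction each gave 8 above 0 and 17 below, where 49.5% and 49.4% of all genes were below. The 7 genes just named kept their sign under all of these scalings.

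Between middle-aged and young animals, most import genes had a lower mean in the middle-aged, as did most genes on the array. The log2 fold change was above 0 for 8 genes (43.3% of all genes) and below 0 for 17, with a median of -0.056 against -0.027 over all genes. None was called, where 0.0233% of all genes were. MTX2 was the 1 gene with an unadjusted p under 0.05, on the lower side (6.9% of all genes), and the higher side had 0 (4.2% of all genes). Without young replicate 6 the median was -0.12, against -0.014 over all genes. Of the 25 genes 18 were below 0, where 53.1% of all genes were. None was called, where 0.0233% of all genes were. The split was 11 above 0 and 14 below under quantile normalization, where 53% of all genes were below. With arrays centred on their medians it was 4 above and 21 below, where 78.4% of all genes were below. The median was then -0.25 over the import genes and -0.14 over all genes. At an unadjusted p under 0.05 the import genes held 2 on the higher side and 0 on the lower side under quantile normalization (4.32% and 5.06% of all genes). With arrays centred on their medians they held 0 and 8 (1.12% and 19.2% of all genes), and their lowest limma adjusted p was 0.136.

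**Figure D2:**
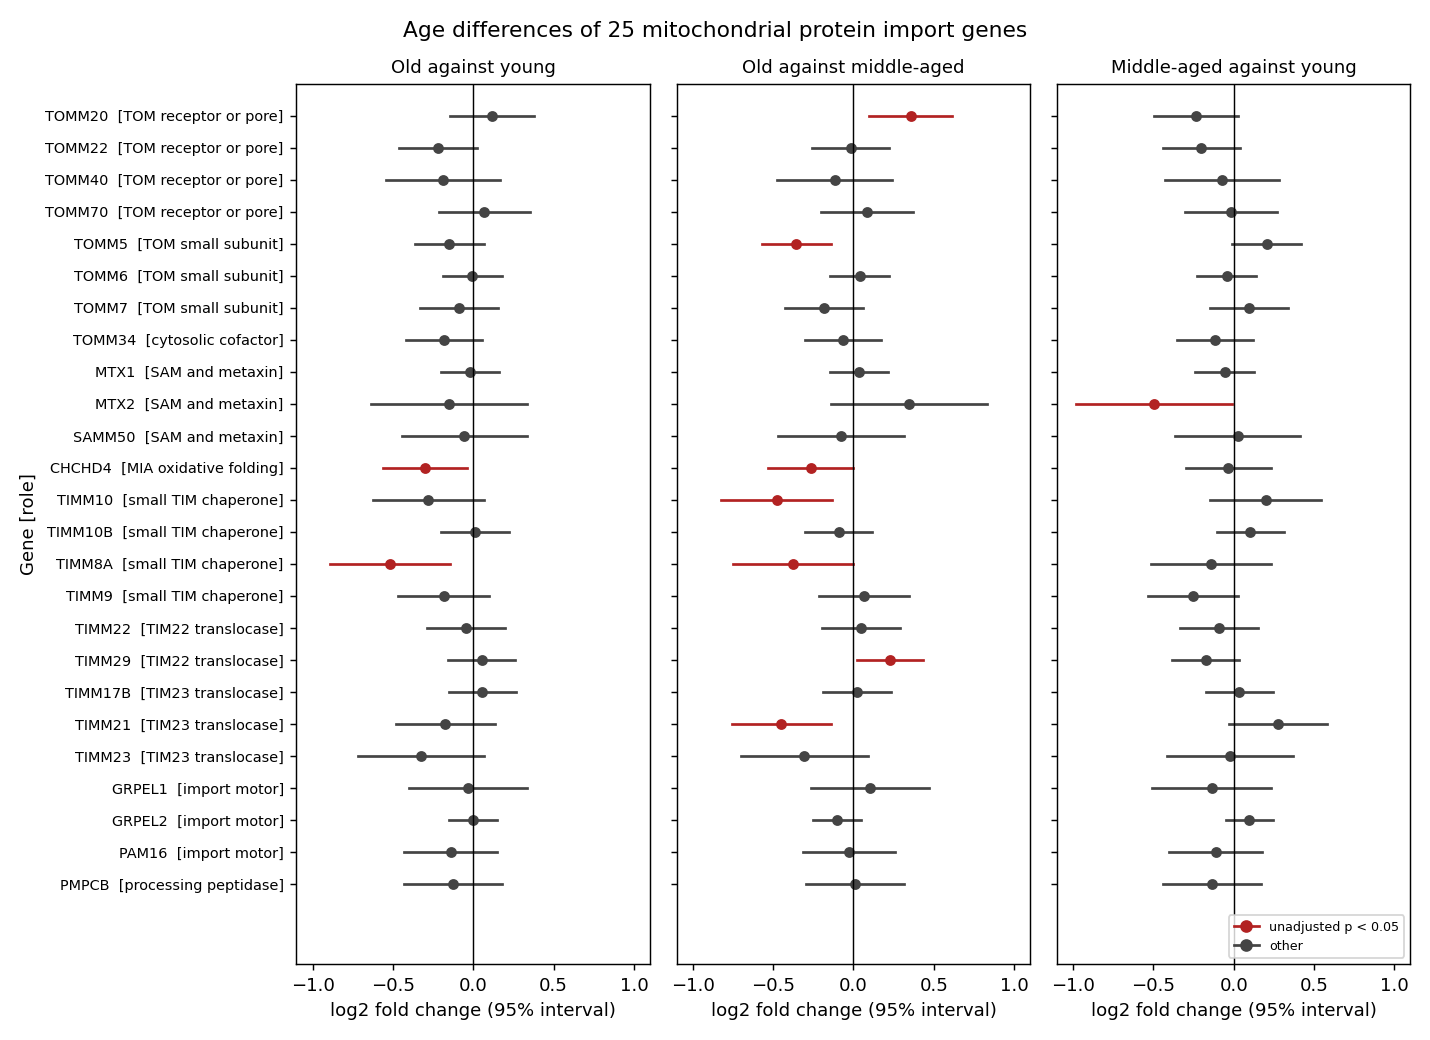
Log2 fold change (point) and its 95% confidence interval from limma (line) for the 25 tested import genes, grouped by role from the TOM complex at the top to the processing peptidase at the bottom. Red genes have an unadjusted p under 0.05; against young animals 20 of 25 old values lie left of 0, and none of the genes was called after adjustment in any panel.

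The outer membrane receptors did not share 1 pattern. TOMM20, the receptor for presequences, had levels of 6.91, 7.15 and 7.40 in young animals (lowest, median and highest), 6.57, 6.99 and 7.12 in middle-aged animals and 7.02, 7.23 and 7.63 in old animals. Of the old animals, 4 of 6 lay above every middle-aged animal. In log2 terms old over middle-aged animals gave 0.35 (SE 0.12, 95% interval 0.094 to 0.62, unadjusted p = 0.0105, limma adjusted p = 0.165), and 0.61 with another background correction. Its probe was dim, detected on 6 young, 4 middle-aged and 6 old arrays, with intensities of 82 to 234, and a second TOMM20 probe was detected on none.

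TOMM22, the central receptor that binds TOMM20, averaged 8.82 ± 0.18 in young animals, 8.62 ± 0.17 in middle-aged animals and 8.60 ± 0.23 in old animals (SD, n = 6 each). Its log2 fold change of old over young animals was -0.22 (95% interval -0.46 to 0.021, limma adjusted p = 0.501), and -0.28 without young replicate 6. The pore TOMM40 had -0.19 (-0.54 to 0.17) and TOMM70, the receptor for carrier precursors, 0.069 (-0.21 to 0.35) in the same comparison. Both intervals span 0, and each allows a difference of more than 0.3 in 1 direction.

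Of the small TOM subunits, which stabilise the complex, TOMM5 had the smallest p of all import genes. Its levels were 10.20, 10.44 and 10.68 in young animals, 10.46, 10.62 and 10.81 in middle-aged animals and 10.09, 10.22 and 10.51 in old animals. Old animals overlapped middle-aged animals in 1 animal, old replicate 3, and 5 of 6 lay below every middle-aged animal. Old over middle-aged animals gave a log2 fold change of -0.36 (SE 0.10, 95% interval -0.57 to -0.14, unadjusted p = 0.00256, limma adjusted p = 0.098), which is 1.28-fold lower in old animals. It was -0.08 when arrays were only centred on their medians.

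TOMM5 was 0.21 higher in middle-aged than in young animals (95% interval -0.008 to 0.42), a value that became -0.068 under the median scaling. TOMM6 had log2 fold changes of -0.006 (95% interval -0.19 to 0.18) for old over young, 0.038 for old over middle-aged and -0.044 for middle-aged over young. The 2 probes of TOMM7 gave -0.18 and -0.24 for old over middle-aged animals and -0.088 and -0.12 for old over young animals, so they had the same sign and similar size. TOMM34, a cytosolic protein that binds precursors on their way to the outer membrane, had -0.18 (95% interval -0.42 to 0.053) for old over young animals.

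In the SAM complex, which inserts barrel proteins into the outer membrane, SAMM50 had log2 fold changes of -0.055 for old over young (95% interval -0.45 to 0.34), -0.079 for old over middle-aged and 0.024 for middle-aged over young. Without young replicate 6 the comparisons with young animals gave -0.22 and -0.14. MTX1, the metaxin with a probe near the detection limit, had -0.022 (-0.20 to 0.16) for old over young. Neither gene's ages separated.

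MTX2, the metaxin found on the cytosolic face of the complex, had the largest SD within an age of any import gene (0.54 in middle-aged animals). Its brightest probe gave 7.95, 8.51 and 8.86 in young animals, 7.12, 8.01 and 8.55 in middle-aged animals and 7.85, 8.39 and 8.89 in old animals. Of the middle-aged animals, 3 of 6 lay below every young animal. Middle-aged over young animals gave a log2 fold change of -0.50 (SE 0.23, 95% interval -0.98 to -0.012, unadjusted p = 0.045, limma adjusted p = 0.44), and it lay between -0.61 and -0.33 when each animal was left out in turn, at -0.33 without middle-aged replicate 6. As the mean of its probes it was -0.079.

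The second detected MTX2 probe did not follow the first. For middle-aged over young animals it gave 0.34 (SE 0.53), and for old over middle-aged animals -0.69 (SE 0.53), where the brightest probe gave 0.35 (SE 0.23). Its intensity was 50 in young replicate 1 and 52 in both old replicates 5 and 6, and 168 to 449 in the other 15 animals. In those 3 animals the brightest probe read 402, 578 and 358, within or above the range of the rest. The direction of MTX2 between ages therefore depends on the probe taken.

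**Figure D3:**
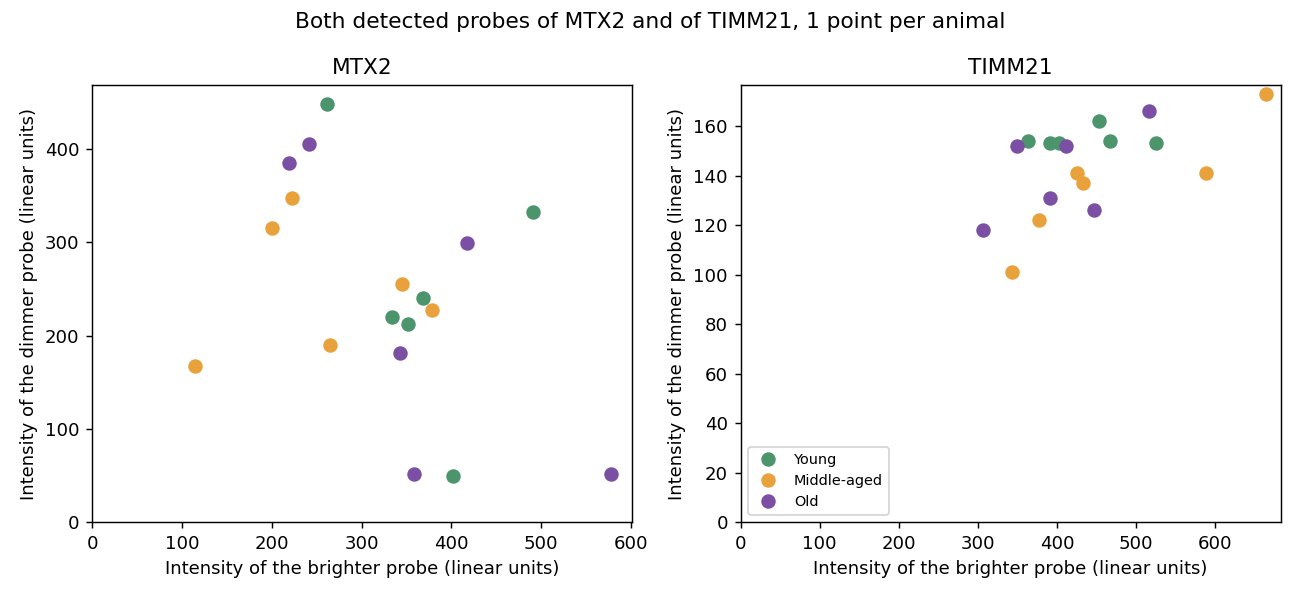
Intensity (linear units) of the brighter detected probe on the x axis and of the dimmer detected probe on the y axis for MTX2 and TIMM21, 1 point per animal coloured by age. For MTX2, 3 animals have a dimmer probe at 50 to 52 with a brighter probe of 358 to 578; for TIMM21 the 2 probes span 306 to 665 and 101 to 173.

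CHCHD4, the oxidoreductase that traps small cysteine-rich proteins in the intermembrane space, had levels of 7.03, 7.29 and 7.39 in young animals, 6.91, 7.27 and 7.52 in middle-aged animals and 6.62, 6.93 and 7.37 in old animals. Of the old animals, 4 of 6 lay below every young animal, while old replicates 1 and 3 lay inside the young range. Old over young animals gave a log2 fold change of -0.30 (SE 0.13, 95% interval -0.56 to -0.038, unadjusted p = 0.0269, limma adjusted p = 0.384), and it was -0.35 without young replicate 6. Against middle-aged animals it was -0.27 (95% interval -0.53 to -0.005, unadjusted p = 0.0459, limma adjusted p = 0.294). With another background correction both values were larger, at -0.57 for old over young and -0.58 for old over middle-aged animals. With arrays centred on their medians, old over young animals gave -0.32. Under that scaling, 0 import genes had an unadjusted limma p under 0.05 on the lower side for old over middle-aged animals. The probe was dim, with intensities of 104 to 173, and was detected on 4 of 6 old arrays and on all 12 others.

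The small TIM proteins are chaperones of the intermembrane space and are themselves imported by way of CHCHD4. TIMM8A, which pairs with TIMM13 in the chaperone complex and is mutated in human deafness-dystonia syndrome, had the largest difference of any import gene between old and young animals. Its levels were 7.45, 8.34 and 8.59 in young animals, 7.77, 8.10 and 8.30 in middle-aged animals and 7.27, 7.75 and 8.05 in old animals. Young replicate 6, at 7.45, was the only young animal below 7.99, and 2 of 6 old animals lay below it.

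For TIMM8A the log2 fold change of old over young animals was -0.52 (SE 0.18, 95% interval -0.89 to -0.15, unadjusted p = 0.00906, limma adjusted p = 0.256), or 1.43-fold lower in old animals, and it was called once young replicate 6 was left out, as above. Against middle-aged animals it was -0.38 (95% interval -0.75 to -0.004, unadjusted p = 0.0476, limma adjusted p = 0.298), or -0.63 with another background correction. With arrays centred on their medians, the unadjusted limma p against middle-aged animals was not under 0.05. Old over young animals gave -0.53 under that scaling. Middle-aged over young animals gave -0.14 (95% interval -0.51 to 0.23), or -0.29 without young replicate 6. The probe was detected on all 18 arrays, with intensities of 161 to 396.

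TIMM10, which forms the main chaperone ring with TIMM9, had levels of 8.58, 8.91 and 9.26 in young animals, 8.72, 9.10 and 9.74 in middle-aged animals and 8.24, 8.65 and 9.06 in old animals. Of the old animals, 4 of 6 lay below every middle-aged animal. The log2 fold change of old over middle-aged animals was -0.48 (SE 0.17, 95% interval -0.82 to -0.13, unadjusted p = 0.00937, limma adjusted p = 0.156), or -0.30 with arrays centred on their medians, and that of old over young animals -0.28 (95% interval -0.62 to 0.067). Its partner TIMM9 had 0.068 (95% interval -0.21 to 0.35) and -0.18 (-0.46 to 0.096) in the same comparisons.

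TIMM9 was 0.25 lower in middle-aged than in young animals (95% interval of the log2 fold change -0.53 to 0.029, limma adjusted p = 0.513). TIMM10B, the subunit that docks the ring on the TIM22 complex, had 0.011 for old over young animals (95% interval -0.20 to 0.22; -0.036 without young replicate 6), -0.092 for old over middle-aged animals and 0.10 for middle-aged over young animals.

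The TIM22 translocase inserts carrier proteins into the inner membrane. TIMM29, a subunit that ties it to the outer membrane, had levels of 7.42, 7.54 and 7.88 in young animals, 7.10, 7.48 and 7.55 in middle-aged animals and 7.38, 7.67 and 7.75 in old animals. Of the old animals, 5 of 6 lay above every middle-aged animal, with old replicate 3 inside their range. Its log2 fold change of old over middle-aged animals was 0.23 (SE 0.099, 95% interval 0.020 to 0.43, unadjusted p = 0.0335, limma adjusted p = 0.262). The pore subunit TIMM22 had 0.048 (95% interval -0.20 to 0.29) in this comparison and -0.044 (-0.29 to 0.20) for old over young animals.

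In the TIM23 translocase, TIMM21, which links it to the TOM complex and to the respiratory chain, had levels of 8.25, 8.74 and 9.01 in young animals, 8.63, 8.91 and 9.46 in middle-aged animals and 8.38, 8.56 and 8.73 in old animals. Of the old animals, 5 of 6 lay below every middle-aged animal. Its log2 fold change of old over middle-aged animals was -0.45 (SE 0.15, 95% interval -0.76 to -0.14, unadjusted p = 0.00646, limma adjusted p = 0.134), or -0.28 with arrays centred on their medians. The dimmer TIMM21 probe, with intensities of 101 to 173, gave -0.064 (SE 0.099) here, and for middle-aged over young animals the brighter and the dimmer probe gave 0.28 and -0.13.

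TIMM23, the channel, averaged 11.64 ± 0.44 in young animals, 11.62 ± 0.32 in middle-aged animals and 11.31 ± 0.25 in old animals (SD, n = 6 each). The log2 fold change of old over young animals was -0.33 (SE 0.19, 95% interval -0.72 to 0.067, limma adjusted p = 0.573), or -0.49 without young replicate 6, and the 3 other probes gave -0.28, -0.14 and -0.13. For old over middle-aged animals the 4 probes gave -0.30, -0.27, -0.061 and 0.024. Human DNA holds a near-identical copy of this gene, TIMM23B, and which copy each probe reads in monkey RNA was not tested. TIMM17B, a partner of the channel, had 0.057 for old over young animals (95% interval -0.15 to 0.27) and a young SD of 0.03, the lowest of any gene and age, while its homologue TIMM17A could not be tested.

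Tested genes of the import motor and the peptidase had log2 fold changes between -0.14 and 0.105 in every comparison of all 18 animals. PAM16, which docks the motor's co-chaperone, had -0.14 for old over young animals (95% interval -0.43 to 0.15), and -0.26 without young replicate 6. GRPEL1, the nucleotide exchange factor of the motor, had -0.033 (-0.40 to 0.34), or -0.14 without that animal, and its homologue GRPEL2, detected on 5 young, 5 middle-aged and 2 old arrays, had -0.003 (-0.15 to 0.15). PMPCB, the catalytic subunit of the processing peptidase, averaged 9.84 ± 0.26 in old animals and 9.97 ± 0.33 in young animals (SD, n = 6 each), a log2 fold change of -0.12 (95% interval -0.43 to 0.18, limma adjusted p = 0.848), or -0.20 without young replicate 6. Middle-aged over young animals gave -0.215 for PMPCB, -0.23 for PAM16 and -0.25 for GRPEL1 without that animal, and -0.13, -0.11 and -0.14 with it.

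**Figure D4:**
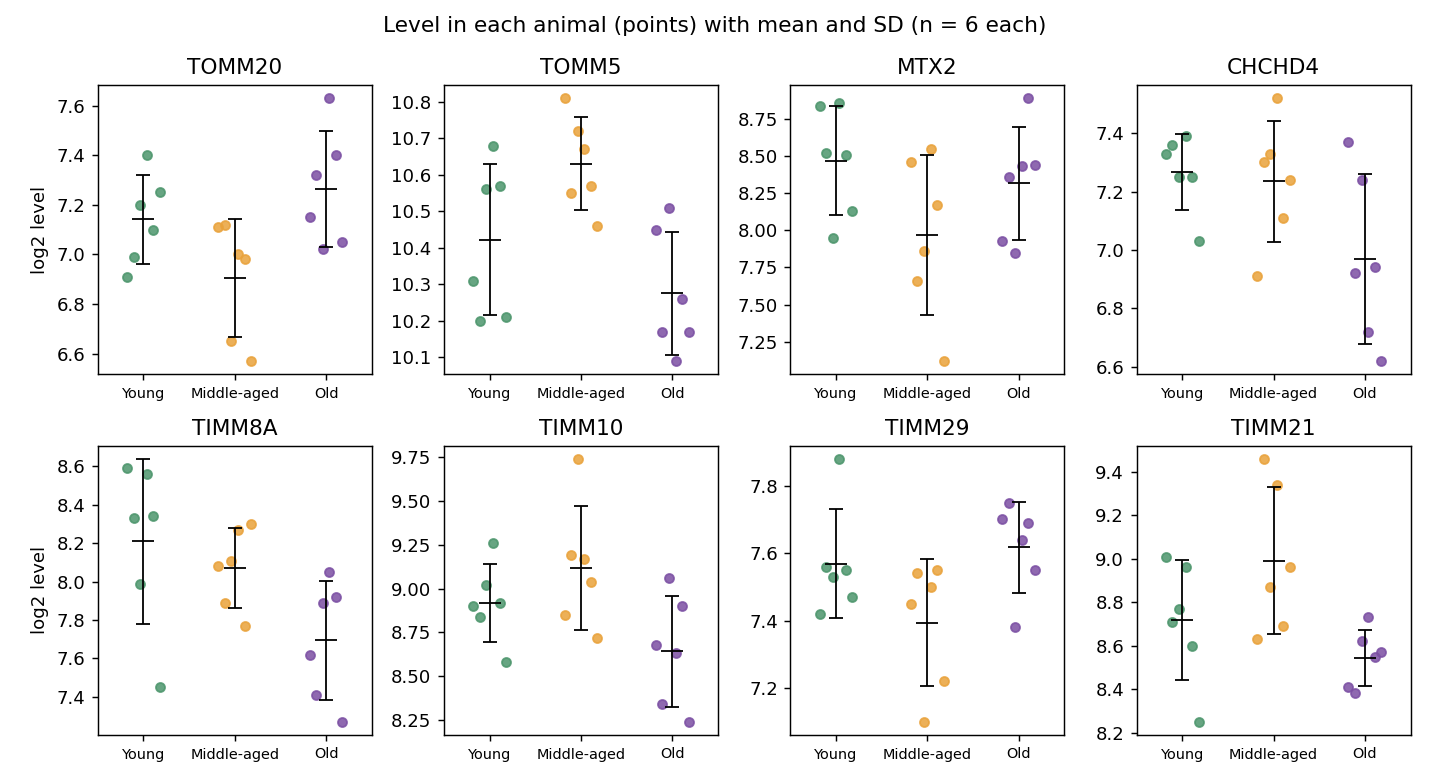
Log2 level of the 8 import genes with an unadjusted p under 0.05 in any comparison, 1 point per animal, with the mean and SD of each age (n = 6 each) as bars. In TOMM5 and TIMM21, 5 of 6 old animals sit below every middle-aged animal, in TIMM29 5 of 6 sit above, and in every panel the ages overlap.

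No import gene had 2 ages whose animals failed to overlap. Over all tested genes, 0.349% were separated with old above young animals and 0.512% with old below young animals; 0.687% and 1.06% were for old above and below middle-aged animals, and 0.221% and 0.594% for middle-aged above and below young animals. Within an age, the SD of an import gene had a median of 0.19 in young animals, 0.19 in middle-aged animals and 0.23 in old animals, and reached 0.44, 0.54 and 0.41. The standard error of a difference had a median of 0.13 and ran from 0.071 to 0.23.

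Animals differed in import transcripts as a group. The mean score over the 25 genes was -0.25, 0.08 and 0.27 in young animals (lowest, median and highest), -0.17, 0.03 and 0.14 in middle-aged animals and -0.22, -0.07 and 0.10 in old animals. The 3 lowest animals were the sixth replicate of each age, and no batch or array position was given in the sources used here. Of the 25 genes, young replicate 6 was the lowest young animal in 15, middle-aged replicate 6 the lowest middle-aged animal in 10 and old replicate 6 the lowest old animal in 11, while young replicate 4 was the highest young animal in 17.

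These animals also stood out in other lists, but not all in the same ones. Young replicate 6 had a score of -0.63 for 59 nuclear genes of oxidative phosphorylation (OXPHOS), against -0.14 to 0.29 in the other young animals. Old replicate 6 had the highest matrix score among old animals (0.53) with an OXPHOS score of -0.04, and a score of -2.24 for slow fibre genes, against -0.63 to 0.88 in the other old animals. It was also the lowest old animal for the skeletal muscle fibre list, at -0.47. All 6 tested slow fibre genes were below 0 for old over young animals (median -0.27), where 51.6% of all genes were. All 6 were also below 0 for old over middle-aged animals (median -0.45), where 45.3% of all genes were. None was called, and 0 had an unadjusted p under 0.05. Without old replicate 6 these medians were 0.13, with 2 of 6 genes below 0, and -0.042, with 3 below. For old over young animals the median was 0.030 without young replicate 4 and 0.012 without young replicate 5. It stayed below 0 when any other single animal was left out. Middle-aged replicate 6 had an OXPHOS score of 0.24, the highest of its age, beside an import score of -0.17. Its array had the lowest SD of log2 intensity of any array (1.025). It also had the lowest share of detected probes (24.5%) and the lowest maximum intensity (19899). The brightest TOMM7 probe had its lowest intensity on this array (2978), yet its level of 12.56 was the highest of the middle-aged animals. The part of array scaling in the scores of this animal was not tested. Nor was the part of the other lists in the import scores.

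**Figure D5:**
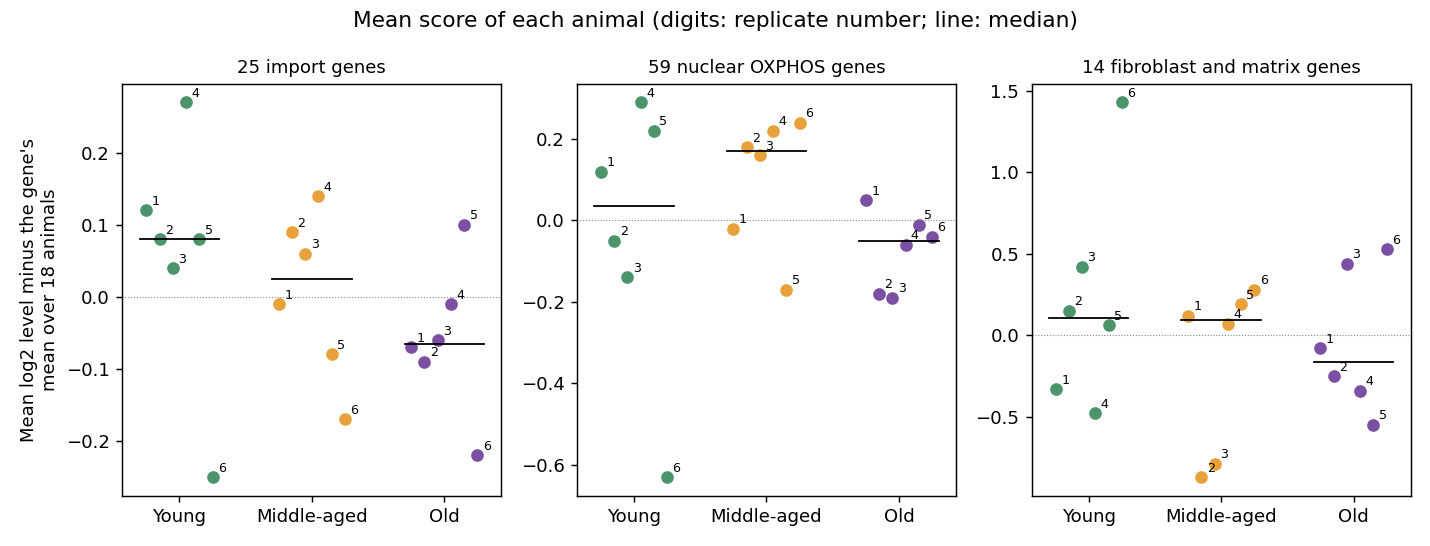
Mean score of each animal (mean over a list of each gene's log2 level minus its mean over 18 animals) for 25 import genes, 59 nuclear OXPHOS genes and 14 fibroblast and matrix genes, by age, with the replicate number beside each point and the median as a line; the y axes of the 3 panels differ in scale. Replicate 6 is the lowest of its age for import genes in each age, at -0.25, -0.17 and -0.22.

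The OXPHOS genes encode some of the main cargo of the route. Their median log2 fold change was -0.063 for old over young, -0.20 for old over middle-aged and 0.13 for middle-aged over young animals, where the import genes had -0.12, -0.028 and -0.056. The last 2 OXPHOS medians changed sign with arrays centred on their medians. They were then 0.12 for old over middle-aged and -0.19 for middle-aged over young animals, beside 0.14 and -0.25 for the import genes. Without young replicate 6 the OXPHOS medians were -0.20 for old over young and -0.011 for middle-aged over young animals, beside -0.19 and -0.12 for the import genes. None of the 59 was called in any of these comparisons, and the difference between the lists was not tested.

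A list of 12 pairs of proteins that bind each other was drawn up, of which 4 had both members tested, and the transcripts of these pairs were compared over the 18 animals. TOMM20 and TOMM22 had a Pearson r of 0.44 (permutation p = 0.0724, adjusted over 4 pairs 0.289) and a Spearman rho of 0.30 (permutation p = 0.233, adjusted 0.311). After the age means were subtracted, r was 0.57 (permutation p = 0.0114, adjusted 0.0458). Within ages (n = 6 each) it was 0.09 in young, 0.89 in middle-aged and 0.61 in old animals, and it was 0.36 without the 2 animals farthest from the median of TOMM20.

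TIMM9 and TIMM10, which form a ring of fixed composition, had an r of 0.30 (permutation p = 0.232, adjusted 0.309) and a rho of 0.35 (permutation p = 0.151, adjusted 0.303), and an r of 0.73 within young, -0.09 within middle-aged and 0.76 within old animals. Without the 2 animals farthest from the median of TIMM9 it was 0.23. SAMM50 and MTX2 had an r of 0.36 (permutation p = 0.146, adjusted 0.293) and a rho of 0.49 (permutation p = 0.0384, adjusted 0.153), and an r of 0.66 without the 2 animals farthest from the median of SAMM50 (permutation p = 0.00519, adjusted 0.0208). MTX1 and MTX2 had an r of 0.06 (permutation p = 0.819, adjusted 0.819) and a rho of 0.14 (permutation p = 0.58, adjusted 0.58), with an r of 0.28 without the 2 animals farthest from the median of MTX1. On the levels as measured in all 18 animals none of the 4 had an adjusted p under 0.05. TOMM20 and TOMM22 fell under it after subtraction of the age means. The permutation does not allow for the subtracted means, so that p tends to be too small. SAMM50 and MTX2 fell under it only without 2 animals. Their adjusted permutation p was 0.0972 with age means subtracted and 0.223 without young replicate 6. This pair rests on the brightest MTX2 probe, which the second did not follow.

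Further genes that serve import were counted from a list of 31, of which 27 were tested. None was called in any comparison. Their medians were -0.076 for old over young animals, -0.075 for old over middle-aged animals and 0.018 for middle-aged over young animals, and 20 of 27 were below 0 in the first of these, where 51.6% of all genes were. At an unadjusted p under 0.05 they held 2 genes on the lower side and 0 on the higher side for old over young (5.69% and 5.27% of all genes), 4 and 1 for old over middle-aged (7.22% and 9.24%), and 0 and 1 for middle-aged over young (6.9% and 4.2%).

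The genes of that list with the smallest p in the comparisons of old animals were cytosolic and matrix chaperones, which keep precursors unfolded or fold them after entry. DNAJA1, a cytosolic co-chaperone of HSP70, averaged 9.64 in old and 10.56 in middle-aged animals, a log2 fold change of -0.92 (SE 0.22, limma adjusted p = 0.0619), and had -0.75 for old over young animals (SE 0.22, limma adjusted p = 0.178). HSPA8, the constitutive cytosolic HSP70, had -0.67 (SE 0.20, limma adjusted p = 0.107) and HSPD1, the matrix chaperonin, -0.56 (SE 0.17, limma adjusted p = 0.111) for old over middle-aged animals. Differences of these chaperones, picked by p, were thus larger than those of TOMM and TIMM genes in the same comparison, on the same log2 scale, although none was called. In that comparison 1 gene of the list was called lower under array weights, without young replicate 1 and without old replicate 3. Of all genes 0.827%, 0.885% and 1.04% were called in these fits. The median of the list was 0.176 with arrays centred on their medians. The difference between the lists was not tested.

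A pair of further lists shares members with the import genes. Of 11 MICOS genes on the chip, which shape the cristae and contact the SAM complex, 7 were tested, MTX2 among them. For old over young animals 6 of 7 were below 0, where 51.6% of all genes were, with a median of -0.15. None was called, where 0.0931% of all genes were. APOO had the smallest p there (log2 fold change -0.28, SE 0.14, limma adjusted p = 0.484). Of 24 genes for substrates of CHCHD4 on the chip, 15 were tested, the small TIM genes among them. For old over young animals 11 of 15 were below 0, where 51.6% of all genes were, with a median of -0.055. For old over middle-aged animals 11 of 15 were below 0 too, where 45.3% of all genes were, with a median of -0.12. In that comparison NDUFA8, a complex I subunit with paired cysteines, had -0.34 (SE 0.15, limma adjusted p = 0.28).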

How the data were processed

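The authors isolated RNA with Trizol, amplified it with biotin labelling and read 1 array per animal in GenomeStudio 2011.1. Deposited were linear probe intensities without normalization, for which a background subtraction is not stated, a detection p-value per probe as deposited from GenomeStudio, and Z scores (score values) that the authors made from log intensities within each array. Z scores were recomputed from the intensities (largest difference 0.0184), put on a log2 scale with the arrays' average SD (1.19) and average level (6.72). Of 47323 probes, 30113 carried 1 symbol in the platform annotation, 8 several and 17202 none; the brightest detected probe stood for a gene. Of 35 import symbols, 34 matched macaque RefSeq symbols and MTX1 did not.

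Ages were compared in limma 3.58.1 (R 4.3.3) with 18 arrays, whose number limits the precision; p-values measure spread between animals. In simulated data of 8589 genes, 50 genes each were changed by 0.5, 1, 2 and -1 log2 units between old and young animals, all at once. Noise was drawn independently for each gene. The fit recovered 58% at 0.5, 96% at 1 and 98% at 2, with 12 false calls among the unchanged genes. So many large changes make the adjusted threshold easier to pass than here, where 8 genes were called for old against young. These shares are therefore not the power for an import gene. Correlations used 100000 permutations, two-sided. Python 3.11.15, pandas 2.3.3, numpy 2.4.6, scipy 1.17.1 and matplotlib 3.10.9 were used. Members and gene lists were chosen with earlier results of these data known. Described in full were import genes with an unadjusted p under 0.05 in any comparison or the smallest p of their role, and of each related list up to 3 genes per comparison by p. Alternatives were other scalings, background corrections, filters and probe rules, array weights, a replicate block, the study's own thresholds and leaving out animals.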

Additional observations from a re-analysis of the deposited data

Results flagged for a closer look

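In 6 of 75 sets of 6 animals (25 genes at 3 ages), 1 animal lay farther from the rest than Dixon's 95% limit allows; chance gives about 1 set in 20. Young replicate 6 was low in PAM16 (log2 level 9.59, against 10.17 to 10.48 in the other young animals) and in TOMM40 (8.45, against 8.78 to 8.97). Old replicate 6 was low in TIMM22 (6.88, against 7.35 to 7.56 in the other old animals) and in TOMM22 (8.15, against 8.60 to 8.80). Old replicate 4 was low in TIMM17B (8.18, against 8.54 to 8.69), and young replicate 4 was high in TIMM29 (7.88, against 7.42 to 7.56).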

How the results depend on the processing

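None of the import genes was called in any comparison under another scaling or background correction, the authors' value table, other filters, other probe rules, array weights, only the 2 ages compared or the 15 animals. The exception was old against young animals without 1 animal, where the count ran from 0 to 1 and the 1 gene was TIMM8A without young replicate 6; all genes called then numbered 54, against 8 with every animal, and 68 under array weights. The study's own thresholds (p, Z ratio and mean Z score), before adjustment, passed 1 import gene for old against young and 5 for old against middle-aged animals (4.47% and 5.74% of all genes passed), and 0 after Benjamini-Hochberg adjustment.

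Over all tested genes, the deviations of same-numbered animals correlated at -0.26 to 0.22 (median 0.022, 18 pairs). Those of differently numbered animals correlated at -0.57 to 0.43 (median -0.010, 90 pairs). By this measure no pairing by replicate number was seen. With the replicate block, 0 import genes were called in each comparison, and all genes called went to 0, 6 and 0 for old against young, old against middle-aged and middle-aged against young, where 8, 56 and 2 were called without it.

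With arrays centred on their medians, the median over the import genes was 0.138 for old against middle-aged and -0.253 for middle-aged against young, beside 0.127 and -0.139 over all genes, with 163 genes called in the first. Some signs changed. For old against middle-aged, that scaling gave 0.228 for PAM16, 0.044 for TIMM23, 0.138 for TOMM22 and 0.024 for TOMM34 (0.041 in the 15 animals), PMPCB became -0.018 with quantile normalization, -0.019 with another background correction and -0.021 with array weights, and MTX2 became -0.171 as the mean of its probes. For middle-aged against young, TOMM5 became -0.068 with arrays centred on their medians, and CHCHD4 0.006 with quantile normalization and 0.001 with another background correction. For old against young, TIMM29 became -0.021 in the 15 animals. The cause was not tested.

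Leaving out each animal in turn, GRPEL2 ran from -0.038 to 0.023 for old against young. For old against middle-aged, PAM16 ran from -0.076 to 0.041, PMPCB from -0.057 to 0.072, TIMM9 from -0.023 to 0.131 and TOMM22 from -0.064 to 0.073. For middle-aged against young, CHCHD4 ran from -0.09 to 0.032 and TIMM23 from -0.181 to 0.072. The median over the import genes ran from -0.192 to -0.07, from -0.064 to 0.014 (above 0 without middle-aged replicate 2) and from -0.122 to -0.036 in the 3 comparisons. Among partner pairs, r was 0.57 for TOMM20 and TOMM22 and -0.03 for MTX1 and MTX2 after age means were subtracted, and 0.66 for SAMM50 and MTX2 without the 2 animals farthest from the median. Signal limits the rest: 10 of the 35 genes could not be tested, and MTX1, GRPEL2, TOMM20 and CHCHD4 rested on probes not detected on every array.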
